A study of Rattus norvegicus with 39 samples.

Results

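Glycine tRNA genes were taken as the rows of the genomic tRNA count table whose names carried Gly after the tRNA number, which gave 29 of its 402 rows. They comprised 15 rows with the anticodon GCC (GlyGCC), 9 with TCC (GlyTCC) and 5 with CCC (GlyCCC). Rows that held identical counts in all 39 libraries could not be told apart and were taken once, as a count pattern named after 1 of its rows. The 29 rows formed 10 patterns (3 GlyGCC, 3 GlyTCC and 4 GlyCCC), of 239 patterns with at least 1 read in the table.

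The libraries came from spermatozoa of the cauda epididymis of wild-type male Fischer rats aged 11 to 12 weeks, 1 male per library. Males received EGME (ethylene glycol monomethyl ether, a solvent of the glycol ether class) by oral gavage on 5 days at 50, 60 or 75 mg/kg/d, or water as the vehicle control (0 mg/kg/d), and sperm were collected 5 weeks later. The groups are called EGME0, EGME50, EGME60 and EGME75 and held 10, 10, 9 and 10 males. Small RNA libraries were made from 10 ng of RNA each and ran 3 to a chip on 13 chips.

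Glycine tRNAs carry glycine to the ribosome. Of their anticodons, GCC reads GGC and GGU, TCC is the exact match of GGA, and CCC is that of GGG. In mature mammalian sperm most tRNA-derived RNA is fragments, and 5′ fragments of GlyGCC and GluCTC are among the best known of them. Part of this cargo is acquired in the epididymis from vesicles of its epithelium. EGME is converted in the body to methoxyacetic acid, which harms spermatocytes, so that sperm collected some weeks later derive from cells exposed during meiosis. The counts are per tRNA gene and do not separate whole tRNAs from fragments.

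The tRNA table held 134381 to 12140012 counts per library, and 52085 to 5545434 when each pattern was counted once. As a check of the tissue label, 6 germ cell miRNAs of the miR-34b, miR-34c and miR-449 families were all detected and made up 26.3% of miRNA counts on average at EGME0 (range 19.8% to 33.1%). Their share was 20.1%, 17.1% and 13.9% on average at EGME50, EGME60 and EGME75 (ranges 11.1% to 25.5%, 10.9% to 28.1% and 6.47% to 22.1%). The fall was not alike in all members. From EGME0 to EGME75, miR-34b-3p went from 22231 to 2206 reads and miR-34b-5p from 2425 to 656. The fall of miR-34b-5p was smaller than that of the mean miRNA counts per library (16573 and 3808). Epithelial miRNAs (5 of 5 detected) had mean shares of 0.861%, 1.67%, 1.75% and 2.92% in the 4 groups, with ranges of 0.625% to 1.29%, 0.612% to 3.33%, 0.251% to 3.01% and 1.81% to 4.77%. Blood cell miRNAs (6 of 7 detected) had mean shares of 0.145%, 0.445%, 0.840% and 1.26%, with ranges of 0% to 0.343%, 0.119% to 1.24%, 0.0216% to 2.17% and 0.248% to 4.82%. In this list miR-142-5p went the other way, with 43 reads at EGME0 and 19, 18 and 7 at the 3 doses. Muscle miRNAs (4 of 4 detected) had mean shares of 1.77%, 2.55%, 4.99% and 4.43%, with ranges of 0.954% to 3.27%, 0.932% to 4.58%, 1.31% to 11.7% and 1.12% to 9.80%. miR-145-5p held most of the muscle counts (14974 reads in all libraries), while miR-133a-3p went the other way, with 173 reads at EGME0 and 15, 15 and 8 at the 3 doses. miR-144-3p had reads at EGME60 alone, miR-1-3p at EGME0 alone, and miR-449c-5p at every dose but not at EGME0. miRNA depth was low in some males, from 139 to 8633 counts at EGME75 (median 3201.5) against 1098 to 38208 at EGME0 (median 15324.5). Small marker shares can therefore rest on a few reads in the shallowest males, such as EGME75 replicates 24 (139 counts) and 7 (995 counts). The marker shares moved with dose alongside the results that follow, and their part in those results was not tested. In such bulk samples, fewer cells of a type and less RNA per cell cannot be told apart.

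The rows of the table name a chromosome and no start or end. The table is named for rat assembly Rnor_6.0, and whether its tRNA annotation is of that assembly was not checked. The first GlyGCC pattern, trna10828-GlyGCC, stood for 7 rows on chromosomes 19 (3 rows), 10, 13, 17 and 3. The second, trna2180-GlyGCC, stood for 7 rows, 2 on chromosome 13 and 5 on 13_random, a name for chromosome 13 sequence of unknown position. The third, trna12647-GlyGCC on chromosome 5, had 4 reads in all libraries together and did not pass the filter on low counts, so 9 of the 10 patterns were tested. The GlyTCC patterns were trna10838-GlyTCC (6 rows on chromosomes 13, 13_random, 10 and 2), trna2186-GlyTCC (2 rows on chromosome 13) and trna5237-GlyTCC (1 row on chromosome 13). The GlyCCC patterns were trna4110-GlyCCC, trna7274-GlyCCC and trna7280-GlyCCC, with 1 row each on chromosome 2, and trna687-GlyCCC, with 1 row on chromosome 10 and 1 on chromosome 4. RefSeq (assembly GRCr8) lists glycine tRNA genes of 71 bases for GCC and CCC and 72 bases for TCC. These gene lengths do not give the lengths of the RNAs counted, since whole tRNAs and fragments are not separated.

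Glycine tRNAs were a large part of the sperm tRNA pool. With each pattern counted once, GlyGCC held 8.18% of tRNA counts on average over the 39 libraries and ranked 3 among 49 anticodons, after SerGCT (24%) and MetCAT (9.66%). GlyCCC ranked 5 with 5.27%, and GlyTCC ranked 13 with 2.38%. These means pool the 4 dose groups, and the order differed between them. At EGME0 GlyGCC ranked 2 with 7.15% ± 1.31 (SD, n = 10), before MetCAT with 6.83% ± 1.96 and after SerGCT with 31.3% ± 6.39. At EGME75 MetCAT had 14.2% ± 4.45 (n = 10) and SerGCT 14.8% ± 4.76, and GlyGCC ranked 3. The order also depended on how repeated rows were treated. When every deposited row was summed, GlyGCC ranked 1 with 24.9%, GlyTCC ranked 4 with 5.45% and GlyCCC ranked 8 with 2.97%.

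Within each anticodon a few patterns held nearly all counts. These are shares of counts, since how reads that match several tRNA genes were counted is not given. The GlyGCC counts were split almost evenly, with 54.8% ± 7.96 (SD, n = 39) in trna10828-GlyGCC and 45.2% ± 7.96 in trna2180-GlyGCC. The GlyTCC counts lay mostly in trna10838-GlyTCC (80.3% ± 4.52), and less in trna2186-GlyTCC (13.1% ± 2.83) and trna5237-GlyTCC (6.62% ± 2.05). The GlyCCC counts lay mostly in trna4110-GlyCCC and trna687-GlyCCC, while trna7274-GlyCCC and trna7280-GlyCCC had mean counts of 399 and 143 per library, against 95100 for trna4110-GlyCCC.

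The mean glycine share of all tRNA counts was higher at each higher dose, which was described without a test. It ranged from 11.7% to 17.4% at EGME0 (median 13%), from 12.1% to 20.5% at EGME50 (median 14.6%), from 10.4% to 19.1% at EGME60 (median 15.9%) and from 14.7% to 21.9% at EGME75 (median 18.2%). The groups overlapped at every dose, although the lowest EGME75 males lay above the control median. The mean share of GlyGCC was 7.15% ± 1.31 (SD, n = 10) at EGME0 and 9.61% ± 1.30 (n = 10) at EGME75, and that of GlyCCC was 4.41% ± 0.959 and 6.66% ± 1.29. The mean share of GlyTCC was 2.29% ± 0.346 at EGME0 and 2.28% ± 0.618 at EGME75. Glycine counts with each pattern taken once were also divided by the full sum of the 4 deposited tables, repeated rows included. This quotient was 4.26% ± 0.919 at EGME0 and 4.16% ± 0.765 at EGME75. It understates the glycine share of those tables, because repeated glycine rows entered the divisor alone.

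That higher share did not appear as a change once libraries were scaled to the bulk of the tRNA pool. With trimmed mean of M-values (TMM) scaling, the glycine sum ranged from 111362 to 220359 library-scaled counts (CPM) at EGME0 (median 153283), and from 135239 to 179944 at EGME75 (median 144116). The EGME75 range lay inside the control range. The log2 fold change of the glycine sum was 0.07 (SE 0.13) at EGME50, -0.03 (SE 0.13) at EGME60 and -0.11 (SE 0.13) at EGME75. None passed 0.05 in edgeR's quasi-likelihood test with Benjamini-Hochberg adjustment over 21 isotypes (adjusted p = 0.860, 0.885 and 0.495), nor was any below 0.05 unadjusted, and DESeq2 and limma-voom called it at no dose. The test called 0%, 28.6% and 57.1% of isotypes at the 3 doses, and 52.4% for the dose slope, where glycine had -0.08 over 75 mg/kg/d (adjusted p = 0.595).

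The choice of scaling decided the sign of that value. With library totals alone, the glycine sum was 0.42 higher on the log2 scale at EGME75 (adjusted p = 0.00141 in the same edgeR test) and its slope 0.37 (adjusted p = 0.00457), with adjusted p at EGME75 from 0.00141 to 0.779 over the 8 alternatives tried. Under that scaling the median of all 21 isotypes was 0.56 at EGME75, against 0.07 with TMM, and relative to that median glycine lay at -0.14 with totals and -0.18 with TMM. SerGCT, the most abundant anticodon with each pattern counted once, fell by 1.5 (SE 0.25) on the log2 scale at EGME75 with TMM (adjusted p = 2.39e-06, edgeR quasi-likelihood test), and by 1.08 with library totals alone.

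Each glycine anticodon was then compared between doses. For GlyGCC, the TMM-scaled CPM ranged from 55599 to 120137 at EGME0 (median 79110), 63371 to 139824 at EGME50 (median 77186), 69034 to 120977 at EGME60 (median 75396) and 66540 to 91976 at EGME75 (median 80832). The 4 groups overlapped throughout, and EGME75 had the narrowest spread, with an SD of 8416 against 20435 at EGME0. The log2 fold changes of GlyGCC were 0.03 (SE 0.14), 0.03 (SE 0.15) and -0.02 (SE 0.14) at EGME50, EGME60 and EGME75, and none passed the threshold. With library totals alone GlyGCC passed at EGME75 (0.43, adjusted p = 0.00166) and for the slope (0.38, adjusted p = 0.00555) in the same edgeR test, and relative to the median of all anticodons its EGME75 value was then -0.035.

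GlyCCC as a whole also stayed within the spread between males. Its CPM ranged from 36469 to 69008 at EGME0 (median 45040) and from 44437 to 65905 at EGME75 (median 57086), with 9 of 10 EGME75 males above the control median and none above the highest control. The log2 fold changes were 0.06 (SE 0.14), 0.02 (SE 0.15) and 0.16 (SE 0.14) at the 3 doses, with an adjusted p of 0.366 at EGME75 in edgeR's quasi-likelihood test. When every deposited row was summed, the value at EGME75 was 0.41 and passed (adjusted p = 0.00963, edgeR). The slope passed with library totals alone (0.51, adjusted p = 0.00459) and with every deposited row (0.34, adjusted p = 0.0266), and otherwise had 0.12 (adjusted p = 0.474). Over the 8 alternatives the adjusted p at EGME75 ran from 0.00103, with library totals alone, to 0.628.

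GlyTCC was the anticodon that fell at the highest dose. Its CPM ranged from 18691 to 29598 at EGME0 (median 27161), 20677 to 36471 at EGME50 (median 28277), 13794 to 33422 at EGME60 (median 22991) and 11915 to 27632 at EGME75 (median 19060). At EGME75, 9 of 10 males lay below the control median and 4 below the lowest control, so the groups overlapped. The log2 fold change was 0.11 (SE 0.16) at EGME50, -0.16 (SE 0.16) at EGME60 and -0.43 (SE 0.16) at EGME75, where it passed (adjusted p = 0.0185, edgeR's quasi-likelihood test over 47 anticodons). The call was lost with the chip as a fixed block (-0.34, adjusted p = 0.161), with every deposited row summed (-0.38, 0.0690) and with library totals alone (-0.01, 0.947), and adjusted p ran from 0.0130 to 0.947 over the alternatives. It was also lost without EGME50 replicate 12 (-0.37, adjusted p = 0.0547) or EGME75 replicate 7 (-0.35, adjusted p = 0.0711), and in both fits TMM took another reference library. The dose slope of GlyTCC, -0.33 (SE 0.17), missed the threshold (adjusted p = 0.0903, edgeR). Relative to the median of all anticodons at EGME75, GlyTCC lay at -0.48 with TMM and -0.47 with library totals.

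Of the 3 glycine anticodons, 0 were called at EGME50, 0 at EGME60, 1 at EGME75 and 0 for the dose slope. In the same edgeR test 0%, 31.9%, 53.2% and 48.9% of the 47 anticodons were called in these comparisons, and 29.8% were called lower at EGME75. No glycine anticodon had an unadjusted p under 0.05 at EGME50, at EGME60 or for the slope, and DESeq2 and limma-voom also called 0 there. Between neighbouring doses none was called either, with EGME60 against EGME50 calling 10.6% of anticodons and EGME75 against EGME60 calling 34%, and no glycine anticodon had an unadjusted p under 0.05. The plot of anticodon CPM by dose shows every male.

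**Figure D1:**
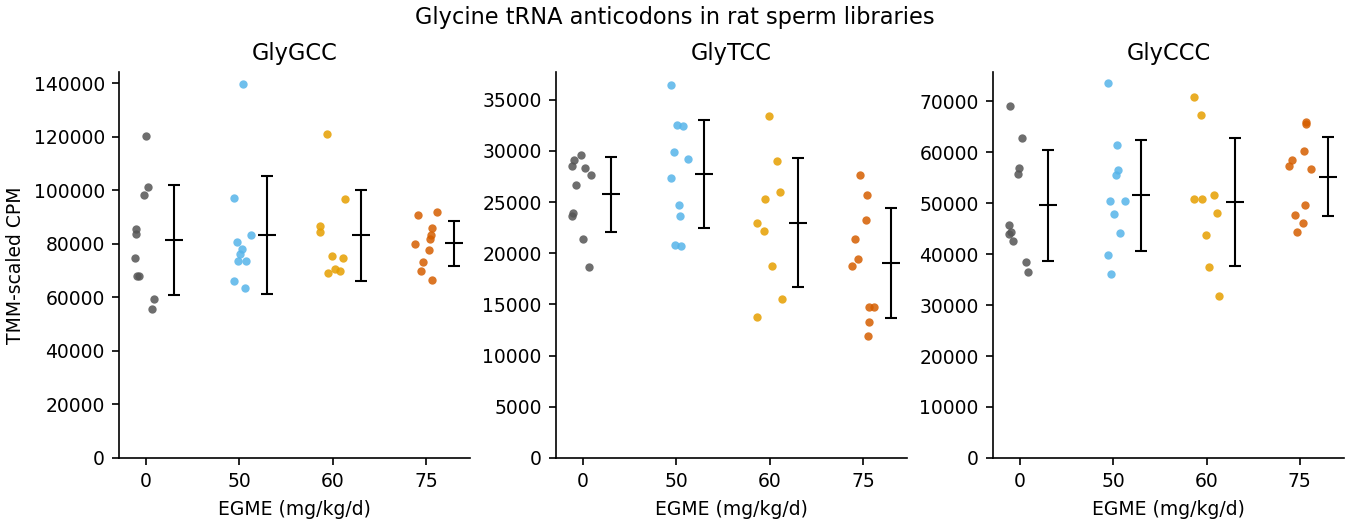
TMM-scaled counts (CPM) of the 3 glycine anticodons against EGME dose, with each point 1 male and the bar the mean ± SD of the group (n = 10, 10, 9 and 10). GlyGCC and GlyCCC overlap at all doses, and the GlyTCC median falls from 27161 CPM at EGME0 to 19060 at EGME75.

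Single gene patterns were tested in a fit of their own, with TMM factors that differ from those of the anticodon sums, so a sum and its members are not on one scale. At EGME50, 0 of the 9 tested glycine patterns were called in edgeR's quasi-likelihood test, which called 0% of 190 patterns. DESeq2 and limma-voom also called 0, and 2 glycine patterns had an unadjusted p under 0.05, trna687-GlyCCC and trna7274-GlyCCC. At EGME60, 2 of 9 were called, both higher, beside 21.6% of all patterns called and 18.9% called higher. At EGME75, 4 of 9 were called, 3 higher and 1 lower, beside 64.7% of all patterns called, 36.8% higher and 27.9% lower. For the dose slope 3 of 9 were called, all higher, beside 61.1% called and 37.9% higher. The median log2 fold change of the 9 glycine patterns was 0.21, 0.14 and 0.09 at EGME50, EGME60 and EGME75, and that of all 190 tested patterns 0.08, 0.14 and 0.16. The TMM values of single patterns depended on the library that edgeR took as the TMM reference, EGME60 replicate 38. In 6 of the 39 fits that left out 1 library, the reference became EGME75 replicate 32, and the median of all patterns at EGME75 was then -0.13 to -0.04, against 0.13 to 0.19 in the other 33 fits. An alternative added after the data were seen used that next reference with all 39 libraries. The median of all patterns at EGME75 was then -0.06, and 6 of 9 glycine patterns were called there (3 higher and 3 lower), beside 65.8% of all patterns, 31.1% higher and 34.7% lower. At EGME60 1 of 9 was called, higher, beside 30% of all patterns called and 12.6% called higher, and for the slope 5 of 9 were called, beside 60% of all. Relative to the median of all patterns, the values at EGME75 changed little between both references, from 1.18 to 1.23 for trna687-GlyCCC, from 1.14 to 1.17 for trna7280-GlyCCC and from -0.37 to -0.39 for trna10838-GlyTCC. With the TMM reference edgeR chose, all 3 patterns called higher were GlyCCC genes, and the 1 called lower was a GlyTCC gene. The plot of fold changes by dose gives all 9.

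**Figure D2:**
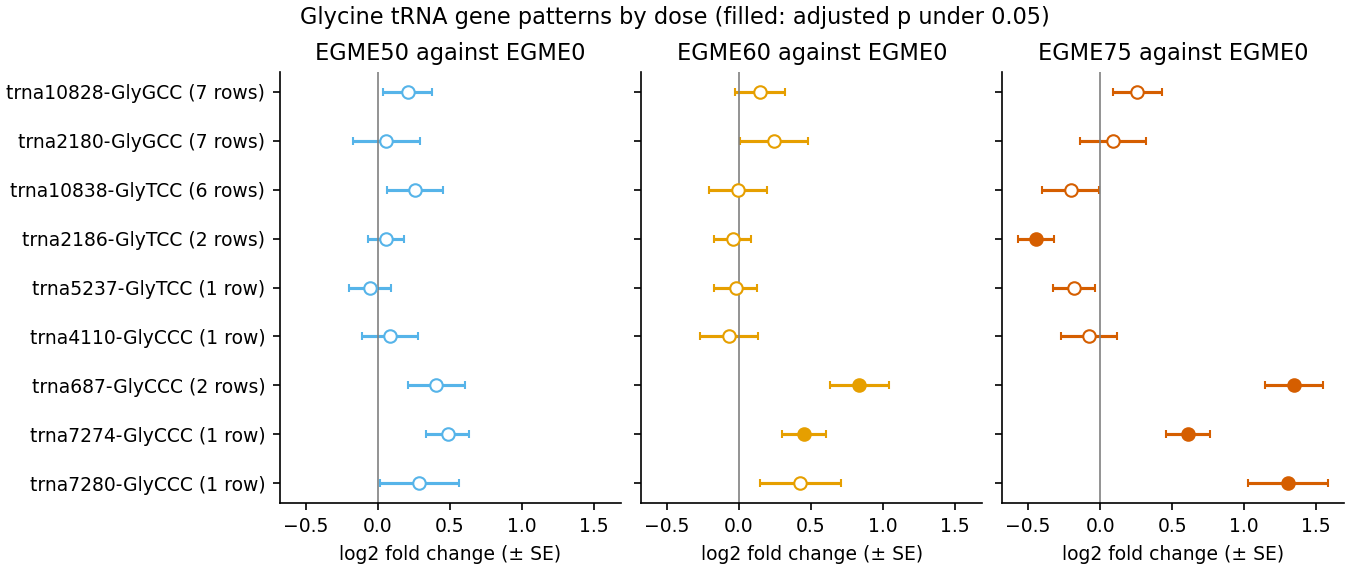
Log2 fold change against EGME0 (± SE) of the 9 tested glycine tRNA gene patterns at each dose, with filled points for an adjusted p under 0.05 (edgeR) and the number of table rows behind each pattern in its label. Filled points are absent at EGME50, number 2 at EGME60 and number 4 at EGME75, where trna687-GlyCCC stands highest at 1.35 and trna2186-GlyTCC lowest at -0.44.

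The GlyCCC pattern trna687-GlyCCC showed the steepest change with dose among the glycine patterns tested. Its CPM ranged from 6021 to 16047 at EGME0 (median 8806), 7464 to 18270 at EGME50 (median 11955), 11665 to 24469 at EGME60 (median 15870) and 13411 to 40214 at EGME75 (median 21351). All 9 EGME60 males and all 10 EGME75 males lay above the control median, and 4 of 9 and 9 of 10 lay above the highest control. The log2 fold change was 0.41 (SE 0.20, adjusted p = 0.572) at EGME50, 0.84 (SE 0.20, adjusted p = 0.00280) at EGME60 and 1.35 (SE 0.20, adjusted p = 5.94e-07) at EGME75 in edgeR's quasi-likelihood test. With the next TMM reference the EGME75 value was 1.18 (adjusted p = 8.60e-07, edgeR). The dose slope was 1.24 (SE 0.20, adjusted p = 5.46e-06, edgeR). With the chip as a fixed block, the values at EGME60 and EGME75 were 0.71 (adjusted p = 0.0129) and 1.22 (adjusted p = 1.10e-05). Over the 8 alternatives the adjusted p ran from 0.00105 to 0.0148 at EGME60 and from 3.48e-10 to 1.10e-05 at EGME75. Neither call was lost when any 1 of the 39 libraries was left out.

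The most abundant GlyCCC gene, trna4110-GlyCCC, did not share that change. Its CPM ranged from 23174 to 54218 at EGME0 (median 35677) and from 21790 to 47791 at EGME75 (median 32001), and the groups overlapped nearly fully. The log2 fold change was 0.08 (SE 0.20), -0.07 (SE 0.20) and -0.07 (SE 0.20) at the 3 doses, and none passed. The GlyCCC counts were divided differently by dose, and trna687-GlyCCC held 21% ± 7.14 (SD, n = 10) of them at EGME0, 24.3% ± 5.57 at EGME50, 33.8% ± 12.3 (n = 9) at EGME60 and 40.5% ± 11.1 at EGME75. The count ratio of trna687-GlyCCC to trna4110-GlyCCC within a library does not depend on scaling. It ranged from 0.135 to 0.467 at EGME0 (median 0.235), 0.182 to 0.572 at EGME50 (median 0.308), 0.264 to 1.5 at EGME60 (median 0.436) and 0.281 to 1.85 at EGME75 (median 0.662). This ratio was chosen after the values were seen and was not tested.

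The rare GlyCCC genes on chromosome 2 were also higher. For trna7280-GlyCCC the CPM ranged from 13.5 to 60.8 at EGME0 (median 34.8), 18.4 to 64.2 at EGME50 (median 50.5), 6.96 to 75.6 at EGME60 (median 41.4) and 53.2 to 189 at EGME75 (median 78.1). At EGME75, 9 of 10 males lay above the highest control. Its log2 fold change at EGME75 was 1.30 (SE 0.28, adjusted p = 0.000111, edgeR's quasi-likelihood test), and it was called under all 8 alternatives and without any 1 library. At EGME50 and EGME60 it was 0.29 (SE 0.28) and 0.43 (SE 0.28), and neither passed. The dose slope was 1.09 (SE 0.28, adjusted p = 0.00121, edgeR). This gene had 3 to 349 reads per library, so its values in the shallowest libraries rest on a few reads.

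For trna7274-GlyCCC the CPM ranged from 92.3 to 189 at EGME0 (median 109), 135 to 205 at EGME50 (median 163), 103 to 219 at EGME60 (median 163) and 138 to 269 at EGME75 (median 160). All EGME50 and EGME75 males lay above the other 9 controls, whose range was 92.3 to 125, but not above EGME0 replicate 33 in every case. At EGME60, replicates 6 and 29 lay within the range of those 9 controls, and 1 of 9 males lay below the control median. The log2 fold change was 0.49 (SE 0.15, adjusted p = 0.195) at EGME50, 0.45 (SE 0.15, adjusted p = 0.0237) at EGME60 and 0.61 (SE 0.15, adjusted p = 0.000496) at EGME75 in edgeR's quasi-likelihood test. The dose slope was 0.61 (SE 0.14, adjusted p = 0.000598, edgeR), and it was lost with every deposited row kept (0.26, adjusted p = 0.153) and without EGME75 replicate 7 (0.32, adjusted p = 0.0714). Without EGME0 replicate 33, the value at EGME50 was 0.57 and passed (adjusted p = 0.0473, edgeR), as it did with log10 depth as a covariate (0.52, adjusted p = 0.0495). The EGME60 call was lost under 5 of the 8 alternatives and without any 1 of 7 libraries (EGME50 replicate 36, EGME60 replicates 13 and 38, EGME75 replicates 7, 24, 31 and 40). For 6 of these 7, all but EGME60 replicate 13, TMM took the next reference library, and with that reference and no library left out the EGME60 value was 0.23 (adjusted p = 0.312). The EGME75 call was lost with every deposited row kept (0.24, adjusted p = 0.198) and without EGME75 replicate 7 (0.30, adjusted p = 0.100), and adjusted p ran from 0.000275 to 0.198 over the alternatives.

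**Figure D3:**
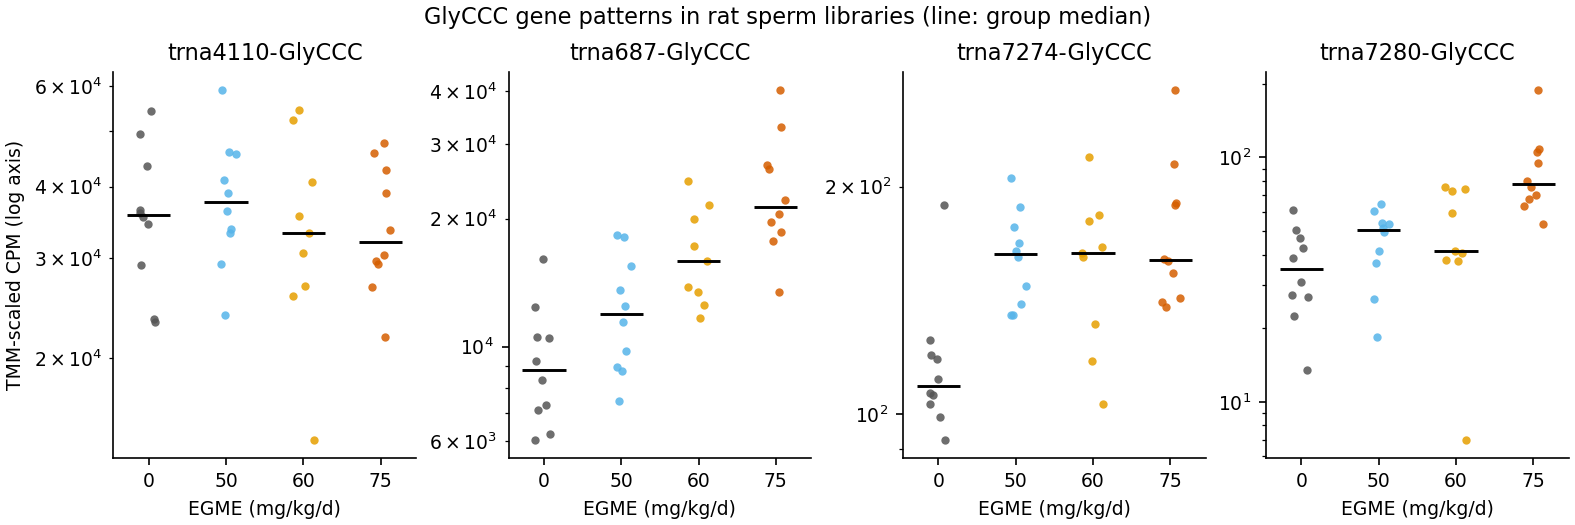
TMM-scaled counts (CPM), on log axes of differing range, of the 4 GlyCCC gene patterns against EGME dose, with each point 1 male and the line the group median. The trna687-GlyCCC median goes from 8806 at EGME0 to 21351 at EGME75, while trna4110-GlyCCC has medians of 35677 and 32001.

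Among GlyTCC genes, trna2186-GlyTCC fell at the highest dose. Its CPM ranged from 2487 to 3807 at EGME0 (median 3253), 2763 to 4853 at EGME50 (median 3168), 2051 to 3678 at EGME60 (median 3352) and 1683 to 3061 at EGME75 (median 2327). All 10 EGME75 males lay below the control median and 6 below the lowest control. The log2 fold change at EGME75 was -0.44 (SE 0.13, adjusted p = 0.00233, edgeR's quasi-likelihood test). It was called without any 1 library and under 7 of the 8 alternatives, and with library totals alone it was -0.22 (adjusted p = 0.210, with a range of 8.97e-06 to 0.210 over the alternatives). With the next TMM reference it was -0.67 (adjusted p = 1.57e-05, edgeR). The slope, -0.30 (SE 0.14), missed the threshold (adjusted p = 0.0578, edgeR). It passed under 5 of the 8 alternatives, and with the next TMM reference (-0.54, adjusted p = 0.000880). It also passed in the 6 fits without 1 library that took this reference, and without EGME0 replicate 9 or 18 or EGME60 replicate 6 or 13 (adjusted p from 0.0305 to 0.0477).

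The other GlyTCC patterns were not called with the TMM reference edgeR chose. Relative to the median of all patterns at EGME75, trna10838-GlyTCC lay at -0.37, trna5237-GlyTCC at -0.34 and trna2186-GlyTCC at -0.61, beside -0.48 for the GlyTCC sum relative to the median of all anticodons. The most abundant, trna10838-GlyTCC, had medians of 20802, 23253, 19211 and 14994 CPM in the 4 groups and a log2 fold change of -0.21 (SE 0.20) at EGME75. trna5237-GlyTCC had medians of 1477, 1420, 1558 and 1404 CPM and -0.18 (SE 0.15). With every deposited row kept, both passed at EGME75, at -0.56 for trna10838-GlyTCC (adjusted p = 0.0153) and -0.56 for trna5237-GlyTCC (adjusted p = 0.00157) in the same edgeR test. Both also passed with the next TMM reference, at -0.45 for trna10838-GlyTCC (adjusted p = 0.0390) and -0.39 for trna5237-GlyTCC (adjusted p = 0.0284), and trna5237-GlyTCC passed with no filter (-0.39, adjusted p = 0.0260). Without 1 library, trna10838-GlyTCC passed in 4 fits (without EGME50 replicate 36, EGME60 replicate 38, or EGME75 replicate 24 or 31) and trna5237-GlyTCC in 6 (also without EGME75 replicate 7 or 40), all of them fits with that reference. The slope of trna5237-GlyTCC, -0.14 (adjusted p = 0.398), passed in the same settings as its EGME75 value, with -0.36 (adjusted p = 0.0291) for the next TMM reference.

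Neither GlyGCC pattern was called at any dose. trna10828-GlyGCC had medians of 40421, 40521, 41454 and 46095 CPM in the 4 groups and a log2 fold change of 0.26 (SE 0.17) at EGME75, which passed with library totals alone (0.50, adjusted p = 0.00507, edgeR), as did its slope (0.43, adjusted p = 0.0124). trna2180-GlyGCC had medians of 30935, 33656, 36733 and 38533 CPM and 0.09 (SE 0.23) at EGME75. At EGME50 and EGME60 the fold changes of both lay between 0.06 and 0.24 on the log2 scale. The count ratio of trna2180-GlyGCC to trna10828-GlyGCC varied between males of every group, from 0.371 to 2.16.

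For the step from 60 to 75 mg/kg/d, 2 of 9 glycine patterns were called. In EGME75 against EGME60, trna7280-GlyCCC was 0.88 higher (SE 0.28, adjusted p = 0.0198) and trna2186-GlyTCC -0.40 (SE 0.13, adjusted p = 0.0198) in edgeR's quasi-likelihood test, which called 32.1% of all patterns, 14.2% higher and 17.9% lower. trna687-GlyCCC was at 0.51 (SE 0.20) and missed the threshold (adjusted p = 0.0505, edgeR). With the chip as a fixed block no glycine pattern was called for this step (trna7280-GlyCCC 0.69, adjusted p = 0.231, and trna2186-GlyTCC -0.22, adjusted p = 0.454). The trna2186-GlyTCC call was also lost with library totals alone (-0.21, adjusted p = 0.341), and that of trna7280-GlyCCC without EGME75 replicate 7 (0.71, adjusted p = 0.0631). trna687-GlyCCC passed with RLE factors (0.58, adjusted p = 0.0269), library totals alone (0.70, adjusted p = 0.0215), DESeq2 (0.58, adjusted p = 0.0185) and the next TMM reference (0.57, adjusted p = 0.0203), and in 16 of the 39 fits without 1 library (adjusted p of 0.0107 or more). In EGME60 against EGME50 the edgeR test called 0 glycine patterns and 0% of all, DESeq2 and limma-voom also called 0 glycine patterns, with 1 glycine pattern, trna687-GlyCCC, at an unadjusted p under 0.05.

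The glycine patterns were also ranked by log2 fold change at EGME75. Of 190 tested patterns, trna687-GlyCCC ranked 27, trna7280-GlyCCC 30 and trna7274-GlyCCC 62 from the highest. The GlyGCC patterns ranked 84 and 102, trna4110-GlyCCC ranked 115, and the GlyTCC patterns ranked 122, 124 and 135. Over all patterns edgeR called 70 higher and 53 lower at EGME75 with TMM and 87 higher and 38 lower with library totals alone. At EGME60 it called 36 higher and 5 lower with TMM, 34 higher and 26 lower with RLE factors, and 24 higher and 33 lower with the next TMM reference.

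**Figure D4:**
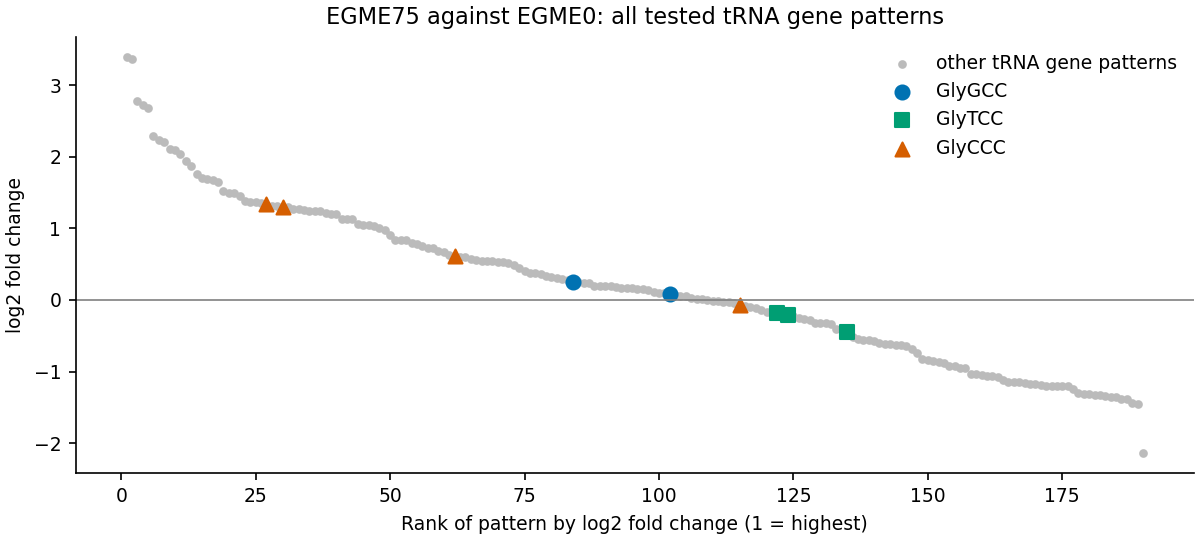
Log2 fold change at EGME75 against EGME0 of all 190 tested tRNA gene patterns (vertical axis), ordered from the highest (horizontal axis, rank), with glycine patterns coloured by anticodon. The GlyCCC points span ranks 27 to 115 and the GlyTCC points ranks 122 to 135.

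Ratios of anticodon counts within a library were compared next, since they do not depend on scaling. They were 9 two-sided permutation tests (100000 permutations, exact enumeration at EGME60 with 9 males), adjusted over the 9. The ratios were chosen with earlier results of these data known, and the adjustment does not cover that choice. The log2 ratio of GlyGCC to GluCTC, the pair best known from sperm tRNA fragments, ranged from 4.61 to 6.83 at EGME0 (median 6.12), 3.41 to 6.49 at EGME50 (median 5.05), 4.02 to 6.0 at EGME60 (median 4.85) and 3.21 to 4.92 at EGME75 (median 4.35). No EGME60 or EGME75 male lay above the control median, although the lowest controls overlapped both groups. The difference from EGME0 was -0.73 at EGME50 (adjusted permutation p = 0.174), -1.12 at EGME60 (adjusted exact p = 0.0216) and -1.76 at EGME75 (adjusted permutation p = 0.00180). With the chip as a fixed effect the EGME60 value was -0.97 and did not pass (adjusted permutation p = 0.122, with a range of 0.0144 to 0.122 over the 3 alternatives), and the EGME75 value was -1.76 (adjusted permutation p = 0.000540).

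GluCTC, the denominator of that ratio, was higher at the higher doses with TMM scaling. It had medians of 1171, 2284, 3006 and 3933 TMM-scaled CPM in the 4 groups. In edgeR's quasi-likelihood test its log2 fold change was 0.98 (SE 0.32, adjusted p = 0.191) at EGME50, which did not pass. At EGME60 it was 1.12 (SE 0.33, adjusted p = 0.0158, edgeR). At EGME75 it was 1.77 (SE 0.33, adjusted p = 1.22e-05, edgeR), where GlyGCC was at -0.02. The other glutamate anticodon, GluTTC, was at -0.08 (SE 0.21). In the list of 9 other anticodons often reported as sperm fragment sources (GluCTC, GluTTC, LysCTT, LysTTT, HisGTG, ValCAC, ValAAC, AspGTC and MetCAT), edgeR called 0, 4 and 5 higher and 0 lower at EGME50, EGME60 and EGME75, beside 0%, 14.9% and 23.4% of the 47 anticodons called higher. Their median log2 fold change was 0.09, 0.47 and 0.68, against 0.01, 0.02 and 0.04 for all 47 anticodons. This list was also chosen with earlier results of these data known.

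Within glycine the ratios moved less. The log2 ratio of GlyGCC to GlyTCC had a mean of 1.63 ± 0.403 (SD, n = 10) at EGME0 and 2.12 ± 0.459 (n = 10) at EGME75, with 9 of 10 EGME75 males above the control median. The difference of 0.48 had a permutation p of 0.0232 and did not pass after adjustment (adjusted permutation p = 0.0697). It passed without EGME0 replicate 25 (0.58, adjusted permutation p = 0.0210) or EGME75 replicate 8 (0.56, adjusted permutation p = 0.0276). Over the 3 alternatives it ran from 0.29 to 0.48, with adjusted permutation p from 0.0698 to 0.388. When 1 library was left out, the adjusted permutation p was at most 0.139. The log2 ratio of GlyCCC to GlyGCC differed by 0.16 at EGME75 (adjusted permutation p = 0.204). With every deposited row summed, which counts the repeated trna687-GlyCCC, trna10828-GlyGCC and trna2180-GlyGCC rows in full, it differed by 0.38 (adjusted permutation p = 0.00351, with a range of 0.00351 to 0.285 over the alternatives).

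**Figure D5:**
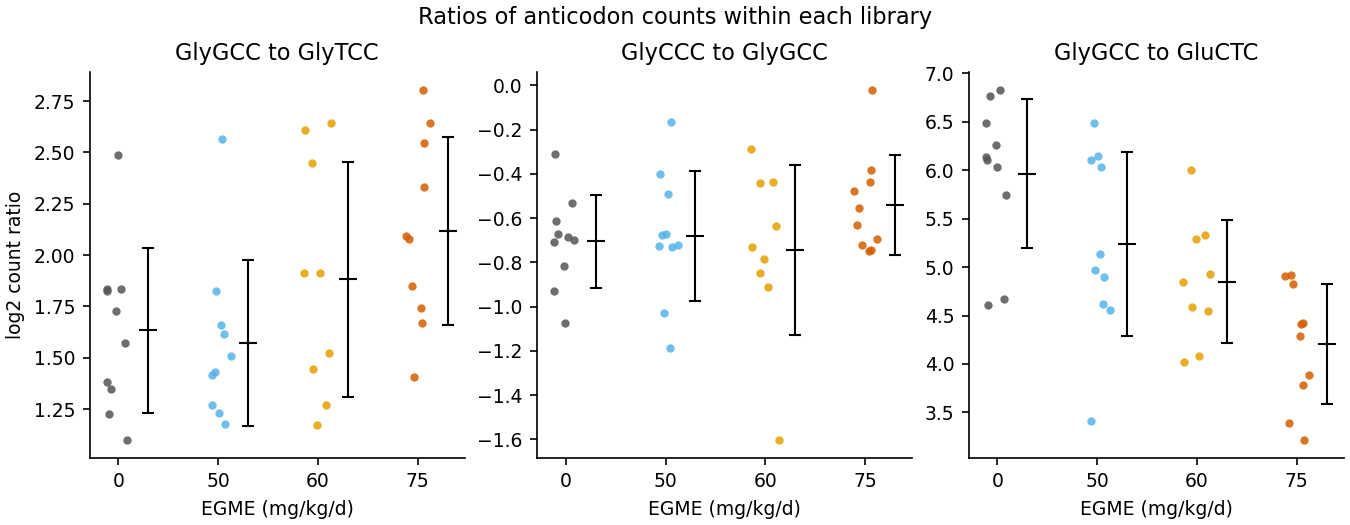
Log2 ratio of anticodon counts within each library against EGME dose for GlyGCC to GlyTCC, GlyCCC to GlyGCC and GlyGCC to GluCTC, with each point 1 male and the bar the mean ± SD. The GlyGCC to GluCTC median goes from 6.12 at EGME0 to 4.35 at EGME75, and the vertical axes differ between panels.

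The likeness of patterns across libraries was described by Spearman's rho of log2 CPM over the 39 libraries, which share their scaling factors and dose groups. GlyCCC was closest to GlyGCC of all anticodons (rho 0.58), and GlyTCC was not close to it (rho -0.08). Outside glycine the most alike were LeuTAG (rho 0.53), LeuAAG (0.43) and GluTTC (0.31). Among single patterns, trna4110-GlyCCC went with trna10828-GlyGCC (rho 0.76), more closely than the latter went with the other GlyGCC pattern, trna2180-GlyGCC (0.41). trna4110-GlyCCC had fewer reads than trna10828-GlyGCC in 39 of 39 libraries, and their count ratio ranged from 0.782 to 0.981 at EGME0 (median 0.917) and from 0.469 to 0.924 at EGME75 (median 0.708). How reads that match several tRNA genes were counted is not given. Whether some reads were counted for both genes was not tested, here or for the ratio of GlyCCC to GlyGCC. By contrast, trna4110-GlyCCC and trna687-GlyCCC, which share an anticodon, had a rho of -0.09.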

How the data were processed

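The authors deposited 4 tables of raw read counts on the sense strand, and the genomic tRNA table of these counts (assembly Rnor_6.0, per the file's name) was used here, with the miRNA table for cell type markers. The submitters' processing notes name FastQC, Bowtie and DESeq2. Their versions, and how reads that match several tRNA genes were counted, are not given in the sources used here. Identical counts of rows are a property of the deposited counts: 160 rows of the tRNA table repeat another row of the same anticodon. Each pattern was taken once, then summed by anticodon and isotype, leaving out 2 rows with no known anticodon.

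Counts were tested with edgeR 4.0.16 (R 4.3.3): TMM scaling, filterByExpr, robust quasi-likelihood fits over all 39 libraries, two-sided, Benjamini-Hochberg over all features tested, threshold 0.05. Dose slopes are given per 75 mg/kg/d on the log2 scale. The SE of an edgeR log2 fold change was its size divided by the square root of the quasi-likelihood F statistic. It therefore restates the test and is not a separate estimate of precision. The low-count filter left 190 of 239 patterns, 47 of 49 anticodons and 21 isotypes. The biological coefficients of variation were 0.390, 0.347 and 0.317. Ratios used a pseudocount of 0.5 counts (scipy 1.17.1). Log2 CPM had a prior count of 2. Alternatives were RLE factors, library totals alone, no filter, DESeq2 1.42.0, limma 3.58.1 (voom) with chip as a random block, chip as a fixed block, log10 depth as a covariate, every deposited row, leaving out each library and, added after seeing the data, TMM with the next reference library (the one whose upper quartile is next nearest the mean). The scripts were tested on simulated data.

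Named were all glycine anticodons, in each anticodon the 3 patterns with the largest mean count, the 3 highest and lowest called patterns per comparison (mean count 10 or more), the 3 anticodons most like GlyGCC and the list of 9 anticodons. trna7274-GlyCCC and trna7280-GlyCCC were followed through all comparisons, and trna12647-GlyGCC is given for completeness. The members, lists and tests were chosen with earlier results of these data known. Marker lists were germ cell (miR-449a-5p, miR-449c-5p, and the 5p and 3p arms of miR-34b and miR-34c), blood cell (miR-150-5p, miR-223-3p, the 2 arms of miR-142, miR-144-3p, miR-451-5p and miR-486-5p), epithelium (miR-429, miR-141, and miR-200 a, b and c) and muscle (miR-1, miR-133a, miR-143 and miR-145). Each library was 1 male, so p-values measure the spread between males.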

Additional observations from a re-analysis of the deposited data

Results flagged for a closer look

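In 64 combinations of a value and a dose group, 12 had a highest or lowest male separated from the nearest other by more than Dixon's 95% limit. Chance alone would flag about 1 in 20 such groups if the values were independent and normally distributed. The values here share counts and males, so the 12 cannot be set against that rate.

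EGME60 replicate 6 had the lowest glycine share of tRNA counts in its group, 10.4% against 14.8% to 19.1% in the other 8 males, and the lowest log2 ratio of GlyCCC to GlyGCC, -1.60 against -0.91 to -0.29. EGME50 replicate 36 had the highest trna5237-GlyTCC level of its group, 2660 CPM against 1139 to 1605, and the highest trna2186-GlyTCC level, 4853 CPM against 2763 to 3659. EGME50 replicate 28 had the highest trna2180-GlyGCC level of its group, 72229 CPM, and the highest log2 ratio of GlyGCC to GlyTCC, 2.57.

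EGME75 replicate 7 had the highest trna7280-GlyCCC level of its group, 189.0 CPM against 53.2 to 108. EGME75 replicate 23 had the lowest trna5237-GlyTCC level, 727 CPM, and EGME75 replicate 39 the highest log2 ratio of GlyCCC to GlyGCC, -0.020. In controls, EGME0 replicate 33 stood out for trna7274-GlyCCC at 189.3 CPM against 92.3 to 125. EGME0 replicate 34 stood out for the GlyCCC share, 6.73% against 3.54% to 5.23%, and EGME0 replicate 25 for the log2 ratio of GlyGCC to GlyTCC, 2.49.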

How the results depend on the processing

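No paired analysis was possible because each replicate number named 1 male in 1 group. The calls of trna687-GlyCCC at EGME60, EGME75 and for the slope, and of trna7280-GlyCCC at EGME75 and for the slope, held under all 8 alternatives and without any 1 of the 39 libraries. They also held with the next TMM reference library, an alternative chosen after seeing the data. Other calls of glycine anticodons, patterns and ratios that were lost or gained are given with their results, and apart from the TMM reference the causes were not tested. The number of glycine patterns called was 1 at EGME50 with log10 depth as a covariate, 1 at EGME60 with RLE factors, with library totals alone, with no filter, with the chip as a fixed block and with every deposited row, and 5 for the slope with no filter. It was 4 for the slope with DESeq2 and with limma-voom, and 3 in EGME75 against EGME60 with DESeq2. With the next TMM reference it was 1 at EGME60, 6 at EGME75, 5 for the slope and 3 in EGME75 against EGME60. In EGME75 against EGME60 it was 0 with the chip as a fixed block. Without 1 library it was 0 to 1 at EGME50, 1 to 2 at EGME60 and 4 to 6 at EGME75. It was then 1 to 3 in EGME75 against EGME60 and 3 to 5 for the slope. The slope reached 5 without EGME50 replicate 36, EGME60 replicate 38 or EGME75 replicates 24, 31 or 40. The log2 ratio of GlyCCC to GlyGCC at EGME75 was 0.38 with every deposited row, and that of GlyGCC to GluCTC at EGME60 -0.97 with the chip as a fixed effect. The glycine share of tRNA counts at EGME0, EGME50, EGME60 and EGME75 was 31.6%, 32.9%, 33.6% and 35.3% with every deposited row. Glycine counts with each pattern taken once, over the full sum of the 4 tables with repeated rows, gave 4.26%, 4.48%, 3.92% and 4.16%.

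The following log2 values changed sign. Apart from the library-total values of GlyGCC and the glycine sum at EGME75 and for the slope, none was past the threshold before or after (195 values of 3284). With library totals alone the glycine sum was 0.22 at EGME60, 0.42 at EGME75 and 0.37 for the slope. GlyGCC was then 0.43 at EGME75, 0.38 for the slope, 0.17 in EGME60 against EGME50 and 0.18 in EGME75 against EGME60, GlyCCC 0.13 in EGME60 against EGME50, and GlyTCC 0.069 at EGME60 and 0.030 for the slope. At EGME60, EGME75 and for the slope, trna10838-GlyTCC was 0.085, 0.018 and 0.060, trna5237-GlyTCC 0.022, 0.031 and 0.017, and trna4110-GlyCCC 0.031, 0.18 and 0.14, and trna2180-GlyGCC was -0.011 at EGME50. With every deposited row trna10828-GlyGCC was -0.084, -0.083 and -0.077 at EGME60, EGME75 and for the slope, and trna2180-GlyGCC -0.083, -0.27 and -0.19 at EGME50, EGME75 and for the slope. At EGME50 trna2186-GlyTCC was then -0.093 and trna4110-GlyCCC -0.060, GlyGCC was 0.026 at EGME75, 0.028 for the slope and 0.010 in EGME75 against EGME60, GlyCCC was 0.0093 in EGME60 against EGME50, and the ratio of GlyCCC to GlyGCC 0.10 at EGME60. With no filter, trna2180-GlyGCC was -0.078, -0.11 and -0.035 at EGME50, EGME75 and for the slope, trna2186-GlyTCC -0.057 and trna4110-GlyCCC -0.030 at EGME50, GlyGCC 0.011 at EGME75, 0.037 for the slope and 0.055 in EGME60 against EGME50, and GlyCCC 0.013 there. With RLE factors and DESeq2 the slope of GlyGCC was 0.0096 and 0.0097, and at EGME50 trna2180-GlyGCC was -0.031 in both, trna2186-GlyTCC -0.035 and -0.034, and trna4110-GlyCCC -0.0031 and -0.0032. With limma-voom GlyCCC was -0.019 at EGME60, and GlyGCC 0.012 for the slope and 0.023 in EGME60 against EGME50. With the chip as a fixed block GlyCCC was -0.031, GlyGCC -0.00017 and trna10838-GlyTCC 0.028 at EGME60, and trna2180-GlyGCC -0.034 at EGME50. With log10 depth trna5237-GlyTCC was 0.0052 at EGME60. With the next TMM reference trna10828-GlyGCC was -0.10 at EGME60, trna2180-GlyGCC -0.093, -0.11 and -0.083 at EGME50, EGME75 and for the slope, and at EGME50 trna2186-GlyTCC was -0.081 and trna4110-GlyCCC -0.073.

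Leaving out 1 library gave these ranges. The glycine sum was -0.12 to 0.060 at EGME60 and -0.13 to 0.028 for the slope. GlyGCC was -0.088 to 0.11, -0.054 to 0.11 and -0.066 to 0.072 at the 3 doses, -0.051 to 0.081 for the slope, -0.085 to 0.14 in EGME60 against EGME50 and -0.084 to 0.039 in EGME75 against EGME60. GlyCCC was -0.014 to 0.12 at EGME50, -0.056 to 0.084 at EGME60 and -0.11 to 0.033 in EGME60 against EGME50. trna10828-GlyGCC was -0.020 to 0.28, -0.11 to 0.21 and -0.016 to 0.32 at the 3 doses and -0.036 to 0.32 for the slope. trna2180-GlyGCC was -0.10 to 0.19 at EGME50, -0.23 to 0.22 at EGME75 and -0.15 to 0.28 for the slope, and trna10838-GlyTCC -0.26 to 0.052 at EGME60. At EGME50 and EGME60, trna2186-GlyTCC was -0.13 to 0.088 and -0.28 to 0.017, and trna5237-GlyTCC -0.30 to 0.013 and -0.25 to 0.046. trna4110-GlyCCC was -0.13 to 0.16, -0.31 to 0.036 and -0.35 to 0.0050 at the 3 doses and -0.34 to 0.020 for the slope. The ratio of GlyGCC to GlyTCC was -0.18 to 0.031 at EGME50 and 0.41 to 0.58 at EGME75, and that of GlyCCC to GlyGCC -0.034 to 0.080 at EGME50 and -0.095 to 0.069 at EGME60. The lowest counts per library were 3 for trna7280-GlyCCC and 8 for trna7274-GlyCCC.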
